A study of Mus musculus with 30 samples.

Results

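The regions described here were acetylated ends of protein-coding genes that carried the initiating form of RNA polymerase II in every library and the elongating form in none. They came from NOS1+ N1E115 cells, a mouse neuroblastoma line whose labels name the tissue as brain and the cell type as neuroblast. Chromatin immunoprecipitation with sequencing was done after 3 days at 4% O2 (hypoxia in the labels) and after 3 days at 20% O2 (normoxia), with 2 libraries per O2 level and antibody. The antibodies used here recognised histone H3 acetylated at lysine 9 (H3K9ac), polymerase II whose tail carries phosphate on serine 5 (POLR2S5), polymerase II whose tail carries it on serine 2 (POLR2S2), polymerase II of any kind (POLR2), the insulator protein CTCF and the cohesin subunit RAD21. No genotype or treatment other than the O2 level is named, the inputs are not analysed here, and whether the libraries of one group are separate cultures is not stated.

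The H3K9ac peaks of the 4 libraries merged into 104182 regions, of which 39931 were called in all 4. Of these, 16119 lay within 1 kb of the start or end of a protein-coding gene, and 15227 were under 4000 bp wide. The set was then every such region with a POLR2S5 island in all 4 libraries and no POLR2S2 island in any, and it held 163 regions at 156 of 21887 genes. The regions were thus chosen by measured calls of H3K9ac, POLR2S5 and POLR2S2, and the presence of H3K9ac and POLR2S5 and the absence of POLR2S2 on them are no finding. Nearest to the width limit were a region at Vav2 of 3938 bp inside it and 1 at Camk1d of 4737 bp outside it.

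As background, polymerase II that starts transcription is phosphorylated at serine 5 of its carboxy-terminal repeats while it is still near the start site, where it often pauses. Release of the pause is linked to phosphorylation at serine 2, and that form accumulates along the body and toward the 3′ end of a transcribed gene. H3K9ac marks the chromatin around active starts. A start with acetylated histone and serine 5 polymerase but little serine 2 polymerase is commonly read as a gene held before productive elongation.

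The strand was known for genes at 119 of the 163 regions. Of these 119, 106 lay at a gene start, which is 89.1% against 94.1% of the 4682 such gene ends with POLR2S5 and POLR2S2 in all 4 libraries, and 13 lay at the far end only. Among the genes named below, Slc13a3, Gpr55, Zcwpw2 and Hcfc2 had their regions at the far end, not at the start. For others, among them Prep, Shroom1, Slc25a26, Arhgef15, Prkch, Rasal1, Gpc6, Aga, Thbs1, Kcne1 and Slc45a4, the strand and so the side was unknown. A total of 63 regions held an annotated start itself. Those starts gave 64 promoter sequences of 59 genes, taken from RefSeq on GRCm38.p6, the same build as the authors' mm10. Each runs from 250 bases before to 50 bases after the start. Of the genes named below for the largest differences between O2 levels, 7 promoters are shown, because these are the starts on which the polymerase and the acetylation were measured. Capitals mark matches, on either strand, to the TATA box TATAAA, the CCAAT box, the GC box GGGCGG, the ETS factor motif CCGGAAG, the cyclic AMP response element TGACGTCA, the E-box CACGTG, the NRF1 motif GCATGCGC, the YY1 motif AAGATGGC or the core of the hypoxia response element, ACGTG, which lies inside the E-box too.
Oasl2, chr5:114896684-114896983, plus strand: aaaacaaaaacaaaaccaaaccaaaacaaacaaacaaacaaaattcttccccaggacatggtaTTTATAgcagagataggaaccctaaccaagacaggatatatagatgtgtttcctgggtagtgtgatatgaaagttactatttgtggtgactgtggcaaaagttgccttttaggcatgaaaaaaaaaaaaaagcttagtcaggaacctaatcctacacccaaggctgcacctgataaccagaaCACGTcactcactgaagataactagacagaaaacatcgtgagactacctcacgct
Pparg, chr6:115360894-115361193, plus strand: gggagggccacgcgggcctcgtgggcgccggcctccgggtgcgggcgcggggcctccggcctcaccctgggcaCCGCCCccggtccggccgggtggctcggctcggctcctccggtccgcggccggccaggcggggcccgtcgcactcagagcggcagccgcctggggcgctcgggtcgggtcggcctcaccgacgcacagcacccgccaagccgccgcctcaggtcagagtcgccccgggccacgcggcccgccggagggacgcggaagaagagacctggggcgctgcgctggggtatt
Mras, chr9:99436663-99436962, minus strand: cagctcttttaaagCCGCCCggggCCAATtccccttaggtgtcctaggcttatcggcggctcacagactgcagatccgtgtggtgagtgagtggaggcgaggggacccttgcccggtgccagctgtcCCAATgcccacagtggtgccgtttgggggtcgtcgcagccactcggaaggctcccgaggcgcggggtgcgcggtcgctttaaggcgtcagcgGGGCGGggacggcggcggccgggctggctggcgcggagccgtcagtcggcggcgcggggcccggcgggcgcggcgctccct
Utp14a, chrX:48256684-48256983, plus strand: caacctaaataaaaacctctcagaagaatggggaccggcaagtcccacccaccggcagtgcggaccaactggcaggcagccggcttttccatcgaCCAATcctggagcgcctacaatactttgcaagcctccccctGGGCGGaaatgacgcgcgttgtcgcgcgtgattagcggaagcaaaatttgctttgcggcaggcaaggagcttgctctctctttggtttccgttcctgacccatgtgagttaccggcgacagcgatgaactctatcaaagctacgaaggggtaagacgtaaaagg
Zfp709, chr8:71881818-71882117, plus strand: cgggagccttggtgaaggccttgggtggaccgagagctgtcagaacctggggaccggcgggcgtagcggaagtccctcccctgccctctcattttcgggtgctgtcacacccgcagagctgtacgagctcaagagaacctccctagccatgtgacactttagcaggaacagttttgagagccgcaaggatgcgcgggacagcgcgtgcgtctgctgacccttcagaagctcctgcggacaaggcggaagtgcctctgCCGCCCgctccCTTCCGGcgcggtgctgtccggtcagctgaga
Chchd3, chr6:33060211-33060510, minus strand: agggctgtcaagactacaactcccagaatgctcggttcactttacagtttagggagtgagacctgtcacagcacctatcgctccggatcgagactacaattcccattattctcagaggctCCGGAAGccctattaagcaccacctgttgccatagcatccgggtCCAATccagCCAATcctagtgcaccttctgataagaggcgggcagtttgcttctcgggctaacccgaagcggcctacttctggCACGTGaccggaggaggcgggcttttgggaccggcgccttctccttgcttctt
Efs, chr14:54926739-54927038, minus strand: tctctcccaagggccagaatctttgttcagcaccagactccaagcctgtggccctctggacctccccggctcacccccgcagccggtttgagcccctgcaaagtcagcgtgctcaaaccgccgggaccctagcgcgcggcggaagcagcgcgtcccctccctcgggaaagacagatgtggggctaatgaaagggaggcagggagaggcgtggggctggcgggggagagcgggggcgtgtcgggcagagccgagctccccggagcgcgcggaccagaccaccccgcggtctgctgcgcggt

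The promoter of Oasl2, a member of an interferon-induced family, differed most from the others shown. Its GC share was 38.7% and its ratio of observed to expected CpG 0.27, and it held a TATAAA match and an ACGTG match. Pparg, which encodes the nuclear receptor that directs fat cell differentiation, had a GC share of 80.3% at the promoter printed. A further annotated Pparg promoter inside the same acetylated region held matches to the TATA, CCAAT and GC boxes, at a GC share of 62.7%. Chchd3, a subunit of the mitochondrial contact site complex, carried CCAAT and CCGGAAG matches and a CACGTG match within its last 60 bases. No letters of these motifs were found in the window of Efs, an adaptor that binds Src.

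Over all 64 promoters the median GC share was 61.5%, against 62.7% for 1745 promoters with a start in gene ends bearing POLR2S5 and POLR2S2 in all 4 libraries and 56.3% for the 21263 promoters of protein-coding genes in the table. The observed to expected CpG ratio was 0.78, against 0.80 and 0.57 in the same sets. A ratio above 0.6 was found in 73.4% of the 64, against 79.0% and 47.6%. By base composition these starts were thus close to those of genes with POLR2S2, and most were CpG-rich. TATAAA was present in 7 of the 64 (10.9%), against 4.58% of the POLR2S2-bearing set and 12.6% of all coding promoters. CCGGAAG was present in 6 (9.38%), against 22.9% and 11.6%, and AAGATGGC in 1 (1.56%), against 6.30% and 3.05%. GGGCGG was present in 64.1%, against 66.7% and 46.2%, CCAAT in 37.5%, against 30.7% and 38.2%, and ACGTG in 20.3%, against 27.4% and 20.9%. TGACGTCA was present in 4 (6.25%), against 2.81% and 2.23%, CACGTG in 6 of the 64, against 175 of 1745 and 1666 of 21263, and GCATGCGC in 1 (1.56%), against 5.04% and 3.52%. These shares are descriptions of small counts and were not tested.

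The cell type in the labels was checked with marker genes. An acetylated gene end in all 4 libraries was found for 13 of 14 neuroblast and sympathetic markers, among them Hand2, Th and Dbh, and was missing for Gata3. It was found for 1 of 8 macrophage markers (Cd68), 0 of 6 endothelial, 0 of 7 fibroblast, 1 of 5 astrocyte (Gfap) and 2 of 7 oligodendrocyte and Schwann cell markers. POLR2S2 in the gene in all 4 libraries separated the lists less. It was found for 10 of 14, 2 of 8, 0 of 6, 0 of 7, 0 of 5 and 4 of 7 markers in the same order. None of these 47 genes had a region of the set. Island reads per library spanned 5.93 to 12.4 M (mega reads) for POLR2S5, 2.06 to 10.2 M for POLR2 and 4.87 to 16.6 M for POLR2S2. The library at 20% O2, replicate 1, was the lowest for each.

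The name "unproductive polymerase" was then checked against POLR2S2 over the whole annotated gene, since the rule asked only about the acetylated region. Of the 156 genes, 75 (48.1%) had no POLR2S2 island anywhere between their annotated ends in any library. The other 81 (51.9%) had such an island: 28 genes in 1 library, 15 in 2, 15 in 3 and 23 in all 4. For about as many genes as not, the data therefore go against the name, and the regions are called POLR2S2-free gene ends below. Among 4256 genes with POLR2S5 and POLR2S2 on an acetylated end, 98.3% had POLR2S2 in the gene in all 4 libraries. That share is largely set by the choice of these genes, which asked for POLR2S2 on the end in all 4 libraries. Of all 21887 genes, 39.8% had POLR2S2 in the gene in no library.

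The 23 genes with POLR2S2 in all 4 libraries were long. Their median length was 92.7 kb, against 49.3 kb for the 58 genes with POLR2S2 in 1 to 3 libraries and 19.5 kb for the 75 with none. That their islands lay off the POLR2S2-free region follows from the rule and is no finding. Over the 156 genes the median length was 36.4 kb, against 13.6 kb for the 4256 genes with POLR2S2 on the end and 17.2 kb for all genes. A longer gene offers more room for an island, and its part in these counts was not tested. Dst, which encodes a giant cytoskeletal linker, had POLR2S2 over 46.6% and 27.5% of its 400775 bp at 4% O2 and over 41.3% and 44.9% at 20% O2. In Hcfc2, whose region of the set lay at the far end, the islands spanned 66.9% and 70.2% at 4% O2, against 34.9% and 68.3% at 20% O2. These genes carried broad elongating polymerase in every library. At Kcnma1, a large-conductance potassium channel gene of 712823 bp, the islands took up 0.8% and 0.7% of the gene at 4% O2 and 0.9% and 0.8% at 20% O2. Pld1, a phospholipase D, had 3.8% and 2.9% at 4% O2 and 2.1% and 4.4% at 20% O2.

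**Figure D1:**
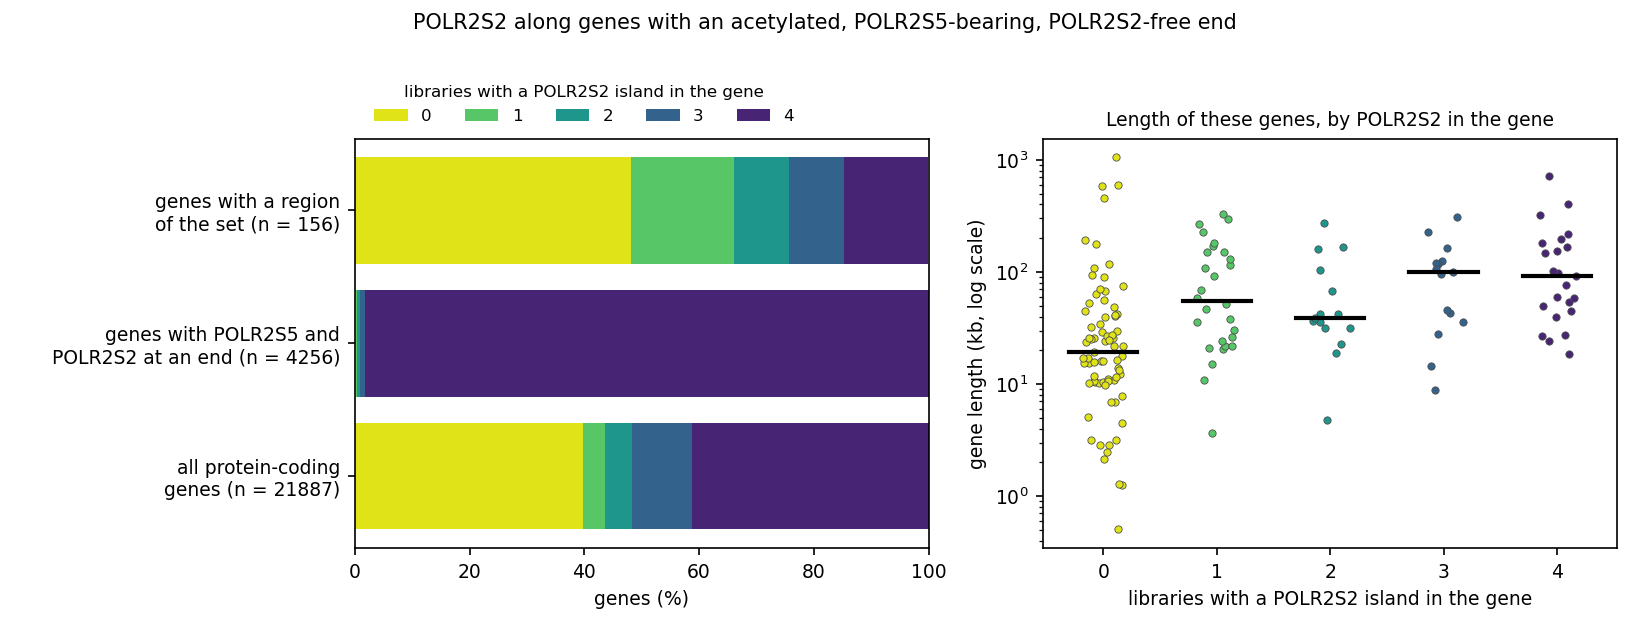
POLR2S2 along genes with a POLR2S2-free acetylated end. Left, the share of genes (x axis, %) by the number of libraries, 0 to 4, with a POLR2S2 island between the annotated ends, for the 156 genes of the set, the 4256 genes with POLR2S5 and POLR2S2 at an end and all 21887 genes: 48.1% of the first group had none. The bar of the 4256 genes is largely set by their choice through POLR2S2. Right, the length of each of the 156 genes (y axis, kb, log scale) by that number, with a bar at the median: genes with none were the shortest group.

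The 75 genes without POLR2S2 included 5 of the 5 Zfp zinc finger genes in the set, the interferon-induced Oasl2 and Xaf1, the small GTPases Mras and Rap2c, the thrombospondin gene Thbs1 and the transcriptional repressor gene Bcl6. In them, POLR2S5 islands took up a median of 5.41% and 5.36% of the gene at 4% O2 and 3.67% and 8.32% at 20% O2. POLR2 islands took up 5.12% and 5.76% at 4% O2 and 1.69% and 6.48% at 20% O2. These medians do not hold for each gene: in Lor, 2872 bp long, POLR2S5 islands took up 62.7% and 74.2% at 4% O2, against 76.6% and 88.1% at 20% O2.

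The distance from a region to the nearest POLR2S2 island of any library had a median of 22659 bp, with 11 regions closer than 1 kb and 118 regions at 10 kb or more. The region of Cryz, a quinone reductase gene, and Tyw3, a gene of transfer RNA modification, lay 11 bp from an island and so barely met the rule. Farthest of all was Rap2c, at 1730515 bp. Lor, which encodes loricrin of the cornified skin layer, lay 1440265 bp away, the glypican gene Gpc6 1089060 bp, Fam172a 1068555 bp and Aga, a lysosomal amidase gene, 1003573 bp. Both ends and the body of these genes were free of POLR2S2 in all libraries.

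The number of regions depended on single POLR2S2 libraries. A further 456 acetylated gene ends with POLR2S5 in all 4 libraries had a POLR2S2 island in exactly 1. That island was in replicate 2 at 4% O2 for 315, in replicate 1 at 4% O2 for 83, in replicate 1 at 20% O2 for 15 and in replicate 2 at 20% O2 for 43. The library that removed most, replicate 2 at 4% O2, also had the most POLR2S2 island reads, 16.6 M, against 10.4, 4.87 and 9.70 M in the other 3 in the same order. At the other end of the scale, 5530 gene ends had POLR2S2 in all 4 libraries, 4630 in 3 and 1271 in 2, and 106 acetylated gene ends had neither POLR2S5 nor POLR2S2 in any. The strand was known for 80 of these 106. Of the 80, 41.25% lay at the far end of the gene only, against 10.9% of the set.

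The acetylated regions were of ordinary width and of moderate score. Their width had a median of 1423 bp and ran from 226 to 3938 bp, against a median of 1592 bp for gene ends with POLR2S2 in all 4 libraries and 928.5 bp for those without POLR2S5 and POLR2S2. H3K9ac peak scores are the authors' own and were turned into percentile ranks within each library, over regions called in all 4. The median rank over the 4 libraries was 39.8 for the set, against 66.8 for gene ends with POLR2S2 and 22.5 for those without POLR2S5 and POLR2S2. Fam234b had the highest mean rank, with 96.0 and 98.0 at 4% O2 and 94.1 and 99.8 at 20% O2. Prep, a prolyl endopeptidase gene, followed with 94.3 and 87.2 at 4% O2 and 97.5 and 93.6 at 20% O2. The other regions among the top 6 were at Shroom1, an actin-binding protein gene, Usp6nl, a Rab GTPase-activating protein gene, the lipid receptor gene Gpr55, and Rad51ap1 with D6Wsu163e, with mean ranks of 87.4 to 91.7. Only 15 of the 163 regions (9.20%) lay at 2 or more genes, against 29.3% of the ends with POLR2S2. Of the 106 at a start, 56.6% held the annotated start, against 35.6%.

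POLR2S5 reads at these regions were few. Reads of all islands in a POLR2S5 region called in all 4 libraries were summed, which gave 145 regions for the 163 acetylated ones, since neighbours can share an island. The median count was 124 and 118 reads in the libraries at 4% O2, against 82 and 149 in those at 20% O2. Over all 9933 POLR2S5 regions the medians were 470 and 538 at 4% O2, against 237 and 565 at 20% O2. The regions were also narrower, with a median of 4.6 kb against 13.8 kb. Prcd and its neighbour Cygb, the cytoglobin gene, shared the region with the most POLR2S5 reads per kb, 79.9 averaged over libraries. It was followed by Shroom1 with 78.8, Zcwpw2 with 77.4, Gpr55 with 77.3, the protein kinase C gene Prkch with 69.7 and Vps41, a lysosomal tethering gene, with 69.2.

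No POLR2S5 region of the set differed between O2 levels in edgeR's quasi-likelihood test at an adjusted p under 0.05. The count was 0 of 145, and the share called among all 9933 regions was 0.0% higher and 0.0% lower. Of the 145, 4 passed an unadjusted p under 0.05, against 2.9% of all regions. DESeq2 called 0, but gave no adjusted p for some regions, which it therefore could not call. Among these were the regions of Ptpre, Oasl2, Mrpl3, Utp14a, Pld1, Zfp709 and Awat2 with Igbp1. With the replicate number as a block 29 of the 145 had an unadjusted p under 0.05, against 13.1% of all regions, and 0 an adjusted one, the smallest being adjusted p = 0.241 (edgeR; 0.0% of all regions called higher and 0.0302% lower). In simulated POLR2S5 counts over 9933 regions the test without the block recovered 2% of planted 2-fold and 37% of planted 4-fold changes. The changes were planted among all regions, which held more reads than the set, and without a replicate effect. Recovery at the regions of the set was not measured. A bulk library cannot tell less polymerase in each cell from fewer cells with polymerase.

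The direction nevertheless leaned one way. The median log2 ratio, 4% over 20% O2, was -0.30 for the 145 regions, against -0.01 for all 9933, and 105 of the 145 ratios lay below 0. Within replicates 1 the median was -0.33 and within replicates 2 it was -0.35 (by RPM, the reads of a region scaled to 1000000 island reads of its library; all regions -0.09 and -0.01). Both libraries at 4% O2 lay below both at 20% O2 for 44 regions (30.3%), against 17.3% of all regions, and above both for 8 (5.52%), against 13.6%. Dividing the reads by island length moved the median of all regions to -0.30 and that of the set to -0.48, a difference of -0.17 on that scale.

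The ratio moved with the read level, and the regions of the set were mostly weak. In the lowest quartile of mean RPM, under 22.4, were 107 of the 145, with a median log2 ratio of -0.39, against -0.17 for the other 2377 regions of that quartile. In the second quartile the 24 of the set had -0.10, against 0.02, and in the third the 12 of the set had 0.21, against 0.06. The 2 regions in the top quartile had 0.25, against 0.00. The part of read level and of the choice of regions by POLR2S2, which removed most regions through a library at 4% O2, was not tested.

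**Figure D2:**
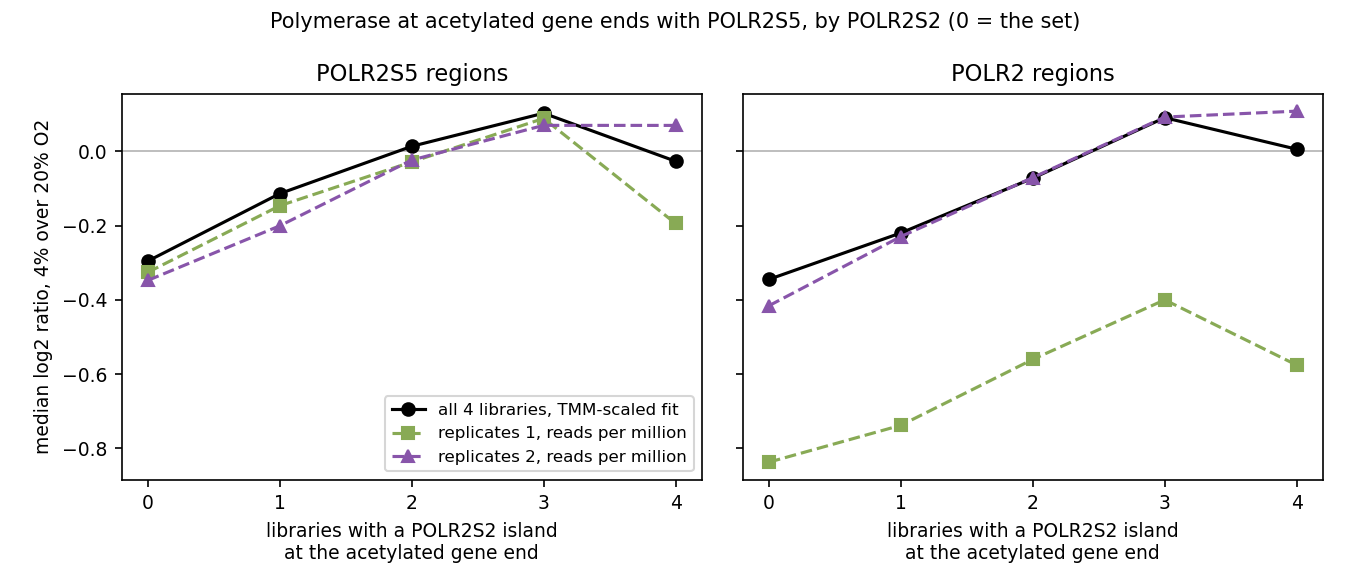
Median log2 ratio, 4% over 20% O2 (y axis), of POLR2S5 (left) and POLR2 (right) regions at acetylated gene ends with POLR2S5, by the number of libraries with a POLR2S2 island on the end (x axis, 0 being the 163 regions). Black circles show the fit over 4 libraries, squares replicates 1 and triangles replicates 2 in RPM: at 0 the fitted medians were -0.30 and -0.34, and for POLR2 replicates 1 lay below 0 at every number.

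The medians also differed by POLR2S2, without a steady order. Acetylated gene ends with POLR2S5 in all 4 libraries and POLR2S2 in 0, 1, 2, 3 and 4 had median POLR2S5 ratios of -0.30, -0.11, 0.01, 0.10 and -0.03. Their median reads at 4% O2, replicate 1, were 124, 186, 310, 617 and 1335 in the same order. The median ratio of the set in the fit with the replicate block was -0.28. Among members at genes with no POLR2S2 island along the gene it was -0.45, and among members 2 kb or more from any POLR2S2 island it was -0.30; these 2 subsets were chosen after the data were seen.

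The regions with the largest ratios among the 8 that did not overlap in the upward direction were those of Ptpre, Pparg, Dip2b, Oasl2, Slc13a3 and Prcd with Cygb. At Ptpre, a receptor tyrosine phosphatase gene, there were 14.8 and 13.7 RPM at 4% O2, against 6.24 and 6.79 at 20% O2. The libraries at 4% O2 were about equal and both above those at 20% O2, with a log2 ratio of 1.16 ± 0.41 (SE, edgeR, adjusted p = 0.999). With the replicate block the ratio was 1.16 (edgeR, adjusted p = 0.278). At Pparg there were 72.7 and 82.9 RPM at 4% O2, against 23.6 and 58.0 at 20% O2. Most of that gap came from replicate 1, where the log2 ratio was 1.62, against 0.52 in replicate 2. Oasl2 had 8.83 and 6.49 RPM at 4% O2, against 4.05 and 5.90 at 20% O2, and Dip2b had 53.4 and 65.6, against 35.9 and 33.0. Slc13a3, a dicarboxylate transporter gene, had 261 and 253 at 4% O2, against 178 and 216 at 20% O2, at its far end. All 6 regions had wider islands at 4% O2 on average over the libraries. Per kb of island each ratio lay below 0, but the median of all POLR2S5 regions on that scale was -0.30. Ptpre (-0.58), Pparg (-0.40) and Dip2b (-0.81) lay below that median. Oasl2 (-0.074), Slc13a3 (-0.23) and Prcd with Cygb (-0.091) lay above it.

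Among the 44 regions that lay lower at 4% O2, the 6 with the smallest ratios were those of Awat2 with Igbp1, Mrpl3, Utp14a, Pld1, Zfp709 and Pfn4 with Fam228b. Utp14a, a gene of small ribosomal subunit assembly, had 6.38 and 3.25 RPM at 4% O2, against 10.8 and 10.8 at 20% O2. Both libraries at 20% O2 were equal, and the spread lay between those at 4% O2, with a log2 ratio of -1.13 ± 0.49 (SE, edgeR, adjusted p = 0.999). With the replicate block the ratio was -1.21 (edgeR, adjusted p = 0.318). Mrpl3, which encodes a protein of the large mitochondrial ribosomal subunit, had 4.65 and 4.66 at 4% O2, against 13.8 and 8.40 at 20% O2. Zfp709, a zinc finger gene, had 3.73 and 4.33, against 8.94 and 7.35. These counts rest on few reads, 39 to 134 per library at Utp14a, 51 to 104 at Mrpl3 and 41 to 91 at Zfp709. Awat2 with Igbp1 had 2.64 and 3.33 RPM at 4% O2, against 9.45 and 5.58 at 20% O2, and per kb of island its log2 ratio turned to 0.22. Pld1 had 13.7 and 6.74, against 30.7 and 14.1, and its ratio turned to 0.010 per kb. Pfn4, a profilin gene, with Fam228b had 15.9 and 13.4, against 32.9 and 24.7; on the scale per kb the ratio was -0.92. With 1 library left out at a time, none of these 12 ratios changed sign, but several moved widely. The ratio at Pparg was 0.44 without replicate 1 at 20% O2 and 1.80 without replicate 2, that at Pld1 -0.45 and -1.50 in the same order, and that at Utp14a -1.71 without replicate 1 at 4% O2 and -0.71 without replicate 2.

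**Figure D3:**
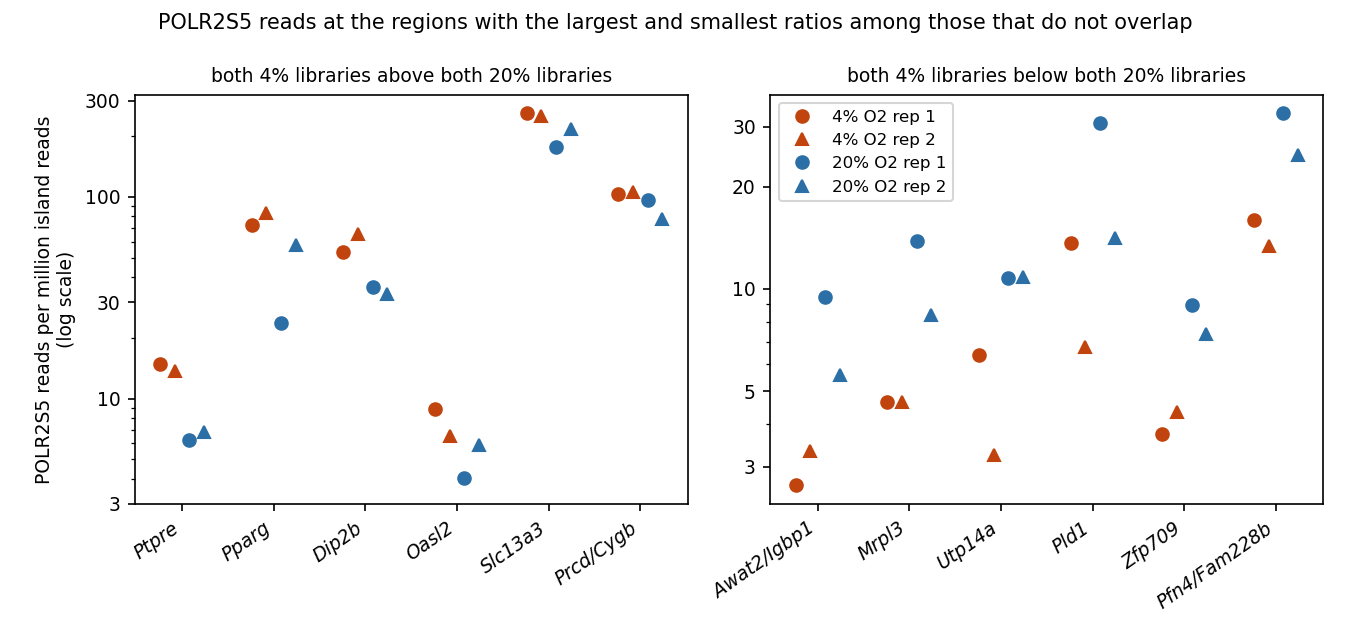
POLR2S5 RPM (y axis, log scale) in each library at the regions with the largest (left) and smallest (right) ratios among those whose O2 levels did not overlap. Orange marks 4% O2 and blue 20% O2, circles replicate 1 and triangles replicate 2: at Ptpre both orange points, 14.8 and 13.7, lie above the blue ones, and at Utp14a both, 6.38 and 3.25, lie below.

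All polymerase II, measured by the POLR2 antibody, was not used to choose the regions, and most of them carried it. A POLR2 island lay on 151 and 155 of the 163 regions at 4% O2 (92.6% and 95.1%) and on 97 and 162 at 20% O2 (59.5% and 99.4%). Only replicate 1 at 20% O2, the library with 2.06 M island reads, fell well below the other 3. Over O2 levels the share was 93.9% ± 1.74 at 4% O2 and 79.4% ± 28.2 at 20% O2 (SD, n = 2 each, exact permutation p = 1.0, smallest possible 0.33). With replicates paired the difference was 33.1 points in replicate 1 and -4.29 in replicate 2. Of gene ends with POLR2S2 in all 4 libraries, 98.1% and 99.4% had POLR2 at 4% O2 and 87.6% and 99.5% at 20% O2. The set lay below them in each of the 4 libraries, with a mean difference of -9.50 ± 12.6 points (SD, n = 4) and an exact sign-flip permutation p = 0.13, the smallest that 4 libraries can give. Without replicate 1 at 20% O2 the mean difference was -3.29 points. These sets were chosen by POLR2S2, a form of polymerase that the POLR2 antibody recognises too, so a lower share in the set partly follows from the choice. They also differed in POLR2S5 reads, with medians of 124 and 1335 at 4% O2, replicate 1. The part of the choice in the POLR2 share was not tested. Gene ends without POLR2S5 and POLR2S2 had POLR2 in 0.0% to 15.1%.

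POLR2 could be compared between O2 levels at 82 regions, which covered 93 of the 163. Their median count was 94 and 139 reads at 4% O2 and 63 and 166 at 20% O2, against 325 and 561 at 4% O2 and 154 and 470 at 20% O2 over all 7811 POLR2 regions. In edgeR 0 of the 82 passed an adjusted p under 0.05, with 0.0% of all regions called higher and 0.0% lower, and 6 passed an unadjusted p under 0.05, against 2.23% of all regions. With the replicate block 24 passed an unadjusted p under 0.05, against 12.9% of all regions. DESeq2 called 0, as did edgeR with the replicate block, whose smallest adjusted p was 0.116 (0.0128% of all regions called higher and 0.0128% lower). In simulated POLR2 counts over 7811 regions the test without the block recovered 5% of planted 2-fold and 64% of planted 4-fold changes. These too were planted among all regions, which held more reads than the set, and without a replicate effect. The median log2 ratio was -0.34, against -0.03 for all, and 69 of 82 ratios lay below 0. Within replicates 1 it was -0.84, against -0.57 for all regions, and within replicates 2 -0.42, against 0.03. Both libraries at 4% O2 lay below both at 20% O2 for 44 of 82 regions (53.7%), against 21.2% of all regions, and above both for 1 (1.22%), against 7.17%. This order is by RPM, without the scaling of the fit, and within replicates 1 the median of all regions was itself -0.57. Scaled per kb of island, the median was -0.52 for the set and -0.48 for all regions, a difference of -0.033.

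As with POLR2S5, the quartile of the weakest regions had the lowest median ratio. The lowest quartile of mean POLR2 RPM held 59 of the 82, with a median log2 ratio of -0.46, against -0.19 for the other 1894 regions. The 12 in the second quartile had -0.25, against -0.03, the 5 in the third 0.20, against 0.04, and the 6 in the top quartile 0.24, against 0.07. Within the third quartile Prep was an exception, with 33.7 and 47.8 RPM at 4% O2, against 110.8 and 66.6 at 20% O2, and a log2 ratio of -0.83 ± 0.32 (SE, edgeR, adjusted p = 0.992). The difference between weak and strong regions was not tested.

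Utp14a had 8.43 and 4.52 POLR2 RPM at 4% O2, against 26.2 and 13.3 at 20% O2, a log2 ratio of -1.31 ± 0.46 (SE, edgeR, adjusted p = 0.992). With the replicate block the ratio was -1.36 (edgeR, adjusted p = 0.182). The libraries at 4% O2 lay below those at 20% O2, which differed widely from each other, and the counts were 46 to 114 reads per library. Zfp709 had 6.40 and 7.37 RPM at 4% O2, against 22.4 and 11.5 at 20% O2, and Zfp141, another zinc finger gene, had 6.57 and 4.62, against 20.9 and 7.56. Arhgef15, a gene of a guanine nucleotide exchange factor, was the only region with both libraries at 4% O2 higher by RPM, 148 and 155 against 147 and 127. Its log2 ratio was 0.38, and ran from 0.21 without replicate 1 at 20% O2 to 0.59 without replicate 2 at 20% O2. Per kb of island it was -0.37, above the median of -0.48 for all POLR2 regions on that scale. The largest fitted ratio was at Vav2, 0.62 ± 0.48 (SE, edgeR, adjusted p = 0.992), named after its values were seen. Its RPM overlapped between levels, 120 and 180 at 4% O2, against 84.1 and 132 at 20% O2. Per kb of island its log2 ratio was -0.49.

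**Figure D4:**
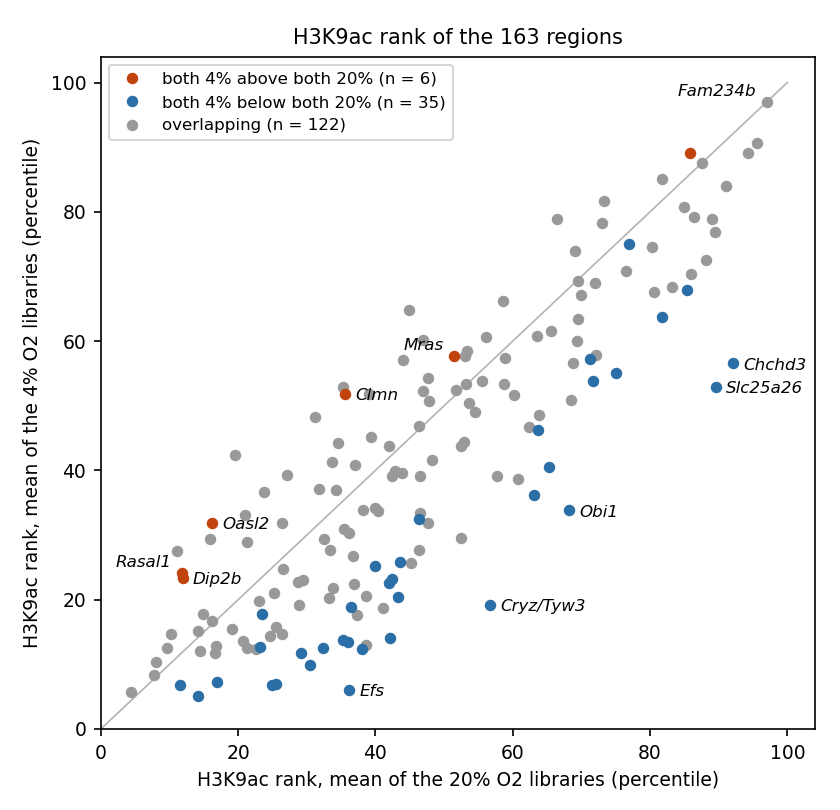
Mean H3K9ac percentile rank of each of the 163 regions in the libraries at 4% O2 (y axis) against those at 20% O2 (x axis), with a line where both are equal. Orange marks the 6 regions with both libraries at 4% O2 above both at 20% O2, blue the 35 with both below and grey the 122 that overlap: Chchd3 and Slc25a26 lie far below the line.

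The acetylation rank also leaned toward 20% O2. The median difference in rank, 4% minus 20% O2, was -5.62 percentile points for the set and 0.53 for all 16119 gene-end regions. Within replicates 1 it was -6.10, against 1.65, and within replicates 2 -6.32, against -0.86. Both libraries at 4% O2 ranked below both at 20% O2 for 35 regions (21.5%), against 11.7% of gene-end regions, and above both for 6 (3.68%), against 12.5%. Gene ends with POLR2S2 in all 4 libraries had a median difference of -0.25 and those without POLR2S5 and POLR2S2 -2.88. Leaving out replicate 2 at 20% O2 brought the median of the set to -2.39. Ranks within a list have no test across libraries here.

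The most negative differences in rank were at Cryz with Tyw3, Slc25a26, Chchd3, Obi1 and Efs. Chchd3 ranked at 60.4 and 52.7 at 4% O2, against 95.7 and 88.5 at 20% O2. Slc25a26, which encodes the mitochondrial carrier of S-adenosylmethionine, ranked at 53.9 and 52.1, against 98.2 and 80.9. Both were among the most acetylated regions at 20% O2 and in the middle of the range at 4% O2. Their POLR2S5 log2 ratios lay near 0, at 0.06 ± 0.46 at Chchd3 and 0.14 ± 0.40 at Slc25a26 (SE, edgeR, adjusted p = 0.999 for each). Cryz with Tyw3 ranked at 21.3 and 17.1 at 4% O2, against 74.6 and 38.7 at 20% O2, and had a POLR2S5 log2 ratio of -0.81 ± 0.43. Obi1, an origin-linked ubiquitin ligase gene, ranked at 37.4 and 30.3, against 75.3 and 60.9, and Efs at 2.1 and 10.05, against 35.4 and 36.9. The largest positive differences were smaller. Clmn ranked at 50.5 and 53.3 at 4% O2, against 27.5 and 43.7 at 20% O2, and Oasl2 at 33.5 and 30.3, against 19.7 and 12.6. Rasal1, a Ras GTPase-activating protein gene, Dip2b and Mras had differences of 12.2, 11.5 and 6.29 points. Oasl2 and Dip2b thus ranked higher in H3K9ac and had more POLR2S5 reads at 4% O2. Per kb of island their POLR2S5 log2 ratios were -0.074 and -0.81, against a median of -0.30 for all regions.

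CTCF peaks lay on 86 and 70 of the regions at 4% O2 (52.8% and 42.9%) and on 73 and 75 at 20% O2 (44.8% and 46.0%). The header of the CTCF list of replicate 1 at 20% O2 carries a code that the labels do not explain, and that library was placed by its label. RAD21 peaks lay on 56 and 70 at 4% O2 (34.4% and 42.9%) and on 39 and 79 at 20% O2 (23.9% and 48.5%). The CTCF share averaged 47.9% ± 6.94 at 4% O2 and 45.4% ± 0.868 at 20% O2, and the RAD21 share 38.7% ± 6.07 at 4% O2 and 36.2% ± 17.4 at 20% O2 (SD, n = 2 each, exact permutation p = 1.0 for both). Within replicates the differences had opposite signs, 7.98 and -3.07 points for CTCF and 10.4 and -5.52 for RAD21. RAD21 followed the length of its lists, with 39012 and 71225 entries for 4% O2, against 26908 and 73328 for 20% O2.

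In each of the 4 libraries, CTCF was on more of the set than of the gene ends with POLR2S2 in all 4 libraries. These ends had 44.6% and 42.9% at 4% O2 and 37.8% and 37.4% at 20% O2, so the mean difference was 5.96 ± 3.99 points (SD, n = 4, exact sign-flip permutation p = 0.13), and 5.61 points without replicate 1 at 20% O2. For RAD21 they had 25.6% and 41.8% at 4% O2 and 13.6% and 38.6% at 20% O2, a mean difference of 7.50 ± 4.32 points, again positive in 4 of 4 (exact permutation p = 0.13). In replicate 2 at 4% O2 the differences were only 0.07 and 1.10 points. With the peak centre required inside the region, the CTCF difference was 3.65 points (exact sign-flip permutation p = 0.25), so it was not positive in every library. That of RAD21 was then 6.74 points (exact sign-flip permutation p = 0.13). Against the 106 gene ends without POLR2S5 and POLR2S2 the CTCF difference was 1.11 points, positive in 1 of 4 (exact permutation p = 1.0), and the RAD21 difference turned to -7.15 points, negative in 4 of 4 (exact permutation p = 0.13). By cohesin the set therefore lay between the other sets of gene ends in every library, but with 4 libraries no such difference can pass 0.05. The 106 held more far ends of genes than the set, and the part of that placement was not tested.

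**Figure D5:**
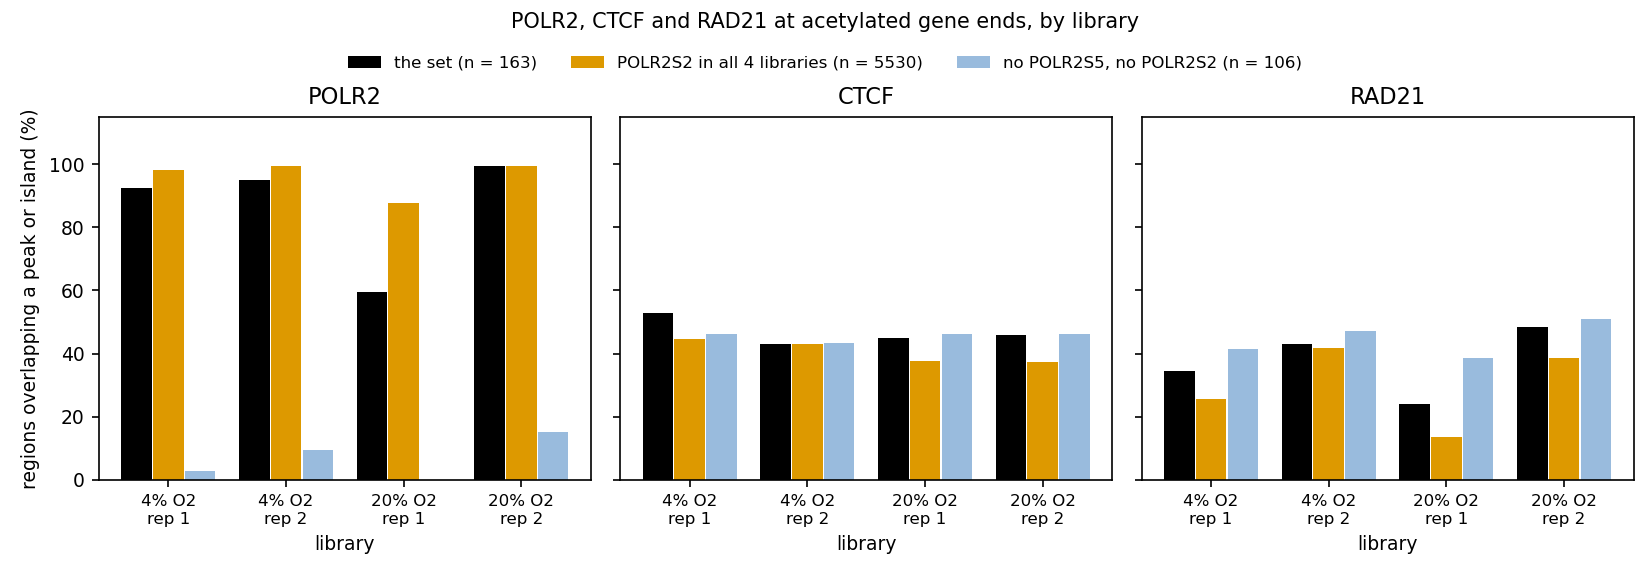
Share of regions (y axis, %) overlapping a POLR2 island (left), a CTCF peak (middle) or a RAD21 peak (right) in each library, for the 163 regions (black), the 5530 gene ends with POLR2S2 in all 4 libraries (orange) and the 106 without POLR2S5 and POLR2S2 (blue). In each library the RAD21 bar of the 163 regions stands between the other bars, and the POLR2 bar of replicate 1 at 20% O2 is the lowest of the set, 59.5%.

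CTCF and cohesin together in all 4 libraries marked 34 of the 163 regions (20.9%), against 12.4% of gene ends with POLR2S2 and 37.7% of those without POLR2S5 and POLR2S2. Among the 34 were the regions of Pparg, Ptpre, Prep, Shroom1, Gpr55, Gpc6, Kcnma1, Thbs1 and Cux1. With or without the other protein, CTCF was in all 4 libraries at 59 regions (36.2%, against 33.3% of all 16119 gene-end regions). RAD21 was in all 4 at 36 regions (22.1%, against 15.7%). Neither was found in any library at 58 of the 163 regions. The same held for 1978 of the 5530 gene ends with POLR2S2 and 45 of the 106 without POLR2S5 and POLR2S2. CTCF was called in both libraries at 4% O2 and neither at 20% O2 at 2 regions, those of Larp6 and the calcium pump gene Atp2b3 (1.23% of 163, against 1.72% of gene-end regions), and the reverse was found at 0 regions, against 0.0993%. POLR2 was called in both at 4% O2 alone at 1 region (background 0.236%) and in both at 20% O2 alone at 1 (background 0.0682%), and RAD21 at 0 and 0 regions (background 0.968% and 0.105%). The 2 CTCF regions were named after their values were seen.

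The genes of the set were counted in lists of gene families. Among the 10842 protein-coding genes with an acetylated end under 4000 bp, 156 had a region of the set (1.44%). No gene of the set was found among 19 developmental transcription factors, 14 secreted developmental signals, 25 immediate early genes, 37 HIF targets and glycolysis genes, 23 heat shock chaperones, 43 pausing and elongation factors, 7 neuroblast identity genes, 20 cholesterol synthesis genes, 81 cytosolic ribosomal protein genes and 2 olfactory receptor genes with such an end. At that share, lists of these lengths can hold none, so these counts say nothing particular about the set. Of the Zfp genes with such an end, 5 of 299 had a region of the set (1.67%), and of the solute carrier genes 4 of 180 (2.22%), namely Slc13a3, Slc25a26, Slc45a4 and Slc22a29. Mitochondrial ribosomal protein genes had 2 of 71 (Mrpl3 and Mrps9), potassium channel genes 2 of 28 (Kcnma1 and Kcne1), oxidative phosphorylation genes 1 of 75 (Ndufa1, a subunit of complex I) and replication-dependent histone genes 1 of 34 (H2ac10). Slc45a4 had 37.0 and 83.0 POLR2S5 RPM at 4% O2, against 49.1 and 66.6 at 20% O2, and the levels overlapped, with a log2 ratio of 0.08 ± 0.48. Slc22a29 had 8.93 and 6.66, against 14.0 and 11.3, so both libraries at 4% O2 were lower, with a log2 ratio of -0.66 ± 0.42 (SE, edgeR, adjusted p = 0.999 for each).

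Among the 5 Zfp genes, Zfp141, Zfp300, Zfp551, Zfp677 and Zfp709, none had POLR2S2 along the gene. They had 6 regions of the set, 2 of them at Zfp677, where 1 carried CTCF in all 4 libraries. The other 5 regions had no CTCF, and none of the 6 had RAD21, in any library. Their POLR2S5 log2 ratios were -0.58, -0.60, -0.74, -0.43 and -0.97, with no region past the test (edgeR, adjusted p = 0.999 for each). Zfp551 had 9.47 and 5.33 RPM at 4% O2, against 16.5 and 9.05 at 20% O2, and so overlapped between levels. Mrps9 had 19.5 and 23.4 POLR2S5 RPM at 4% O2, against 39.3 and 43.3 at 20% O2, a log2 ratio of -0.91 ± 0.37. Both mitochondrial ribosomal protein genes carried POLR2S2 along the gene in all 4 libraries. Ndufa1, which shares its region with Rnf113a1, had 6.65 and 7.99 RPM at 4% O2, against 7.76 and 9.94 at 20% O2, a log2 ratio of -0.25 ± 0.42. Kcne1, an accessory channel subunit gene, had 16.6 and 23.98 at 4% O2, against 4.56 and 21.9 at 20% O2, and the value of 4.56 came from the library with the fewest island reads. H2ac10 lay 564 bp from a POLR2S2 island of its histone cluster and had the smallest POLR2S5 ratio of all 145, -1.49 ± 0.74, with 13.8 and 5.25 RPM at 4% O2, against 42.7 and 12.9 at 20% O2. Its levels overlapped, and near-identical histone genes can share reads, so its count is uncertain. For POLR2 its log2 ratio was -1.89 ± 0.81, and -2.65 when replicate 2 at 20% O2 was left out. That left 1 library at 20% O2, the one with the fewest island reads, which was assumed to vary like those at 4% O2. H2ac10 had 13.8 and 5.31 POLR2 RPM at 4% O2, against 86.0 and 11.3 at 20% O2, and the ratio of -2.65 rests on the value of 86.0.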

How the data were processed

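Lists of 24 libraries were used, 6 antibodies by 2 O2 levels by 2 replicates. Per the submitters' processing notes, the build is mm10, and BWA, Picard and SICER are listed without versions. Peaks of H3K9ac, CTCF and RAD21 were called with MACS2 and islands of the polymerase forms with SICER, per the file headers, each library against an input. The values of the deposited MACS2 lists, whose lowest is 2.0, were taken as −log10 of a p- or q-value because of their range, and only their ranks within a list were used. The whole numbers of the deposited SICER lists were taken as counts of reads per island. They do not give the depth of a library, so no counting interval was computed. Each replicate 2 list was also deposited as its peak summits (MACS2) or as an identical copy (SICER), in 12 of 12 cases, and was counted as 1 sample. At most 0.967% of intervals were identical between replicates.

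Intervals on chromosomes 1 to 19, X and Y were merged at an overlap of 1 bp or more. Gene ends came from RefSeq, GRCm38.p6. That table gives no strand; 17492 of 21887 protein-coding genes, and 113 of the 156, matched the promoter table, which does. Counts in regions called in all 4 libraries of an antibody were tested with edgeR 4.0.16 (quasi-likelihood, TMM, Benjamini-Hochberg over all regions, adjusted p under 0.05). The fit was tested on simulated data with 200 changed regions. DESeq2 1.42.0, no filter, reads per kb and leaving out each library were alternatives. Shares were compared with exact two-sided permutation tests. P-values measure the spread between libraries, which may be technical.

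Per the file headers, the replicates of each antibody ran on different flow cells and both O2 levels of a replicate ran together, so same-numbered libraries form pairs. Across regions, their departures from the group mean had correlations of 0.55 for POLR2S5 and 0.53 for POLR2. The replicate block is reported where the counts of calls are given, and for Ptpre and Utp14a. The other fitted ratios, errors and adjusted p-values of single regions come from the fit without it, which ignores the pairs.

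Named were the regions with the largest and smallest ratios or rank differences among those whose O2 levels did not overlap (6 each for POLR2S5, up to 4 for POLR2, 5 for H3K9ac), the 6 highest in rank and in reads per kb, the 5 farthest from POLR2S2, and every region at a listed gene; 1 region that this rule names for POLR2 is not reported here. The members and the lists were chosen with earlier results of these data known.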

Additional observations from a re-analysis of the deposited data

How the results depend on the processing

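The number of regions, 163, was 80 with only the upper part of H3K9ac scores, 145 with POLR2S2 islands widened by 2 kb, and from 222 to 512 with 1 O2 level and replicate left out of the rule. The share of genes with POLR2S2 along the gene (51.9%) was 14.7% when islands in all 4 libraries were asked for, 7.05% when an island had to cover at least 50% of the gene, and 46.2% to 49.4% with 1 POLR2S2 library left out. The median POLR2S5 log2 ratio was -0.48 per kb of island, -0.28 with the replicate block, -0.45 at genes with no POLR2S2 island and -0.37 to -0.21 with 1 library left out. The POLR2 median was -0.53 to -0.24 with 1 library left out. The H3K9ac rank difference was -6.27 when ranked over gene-end regions, -6.53 at genes with no POLR2S2 island and -6.25 to -2.39 with 1 library left out. Against gene ends without POLR2S5 and POLR2S2, the difference in share turned to 79.8 points for POLR2 and -7.15 for RAD21. The POLR2 share between O2 levels, 14.4 points higher at 4% O2, turned to -1.23 with the upper part of island counts. Per kb of island the log2 ratio turned to -0.58 at Ptpre, -0.40 at Pparg, -0.81 at Dip2b, -0.074 at Oasl2, -0.23 at Slc13a3, -0.091 at Prcd with Cygb, 0.22 at Awat2 with Igbp1, 0.010 at Pld1 and, for POLR2, -0.37 at Arhgef15. On that scale the median of all regions was itself below 0, at -0.30 for POLR2S5 and -0.48 for POLR2. For all these values the cause was not tested. With the replicate block no call of a POLR2S5, POLR2 or share result changed, and no median changed sign. With 2 libraries per level, few reads per region and island calls that depend on depth, only large differences could have been called.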
